A study of Mus musculus with 45 samples.

Results

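The genes described are 7 transcription factors of upper-layer cortical neurons, Cux1, Cux2, Pou3f1, Pou3f2, Pou3f3, Rorb and Mef2c. They were chosen by name and not by a measured value, but with earlier results of these data known. They make up 7 of the 53491 genes listed in each table. The libraries come from wild-type mouse primary cortical cells of 3 embryonic stages (E11.5, E14.5, E16.5) that run from early to late cortical neurogenesis, kept in culture in a medium for neural progenitors. Each of the 3 replicates of a stage (A, B and C) was a pool of cortices, which took 7 embryos for the earliest stage and 2 for each later stage, and its cells were divided over 5 wells. All cells received 100 uM 4-thiouridine (4sU) for 20 h and then 5 mM uridine, and 1 well of each pool was taken after 0, 2, 4, 8 and 12 h of this chase, which gave 45 libraries in 15 groups of 3. In SLAM-seq, alkylated 4sU reads as C where the genome has T, so the T-to-C conversion rate of a gene (converted Ts over covered Ts) rises with the share of its RNA that carries label.

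Cortical projection neurons are born from the inside out, deep layers before upper layers. The 7 genes are known from the transcriptional program of the later-born neurons, and which cells held their RNA here was not tested. Cux1 and Cux2 are cut-homeodomain factors that mark upper layers and act on dendrites and synapses. Pou3f1, Pou3f2 and Pou3f3 (also called Oct6, Brn2 and Brn1) are POU-domain factors, and Pou3f2 and Pou3f3 are needed together for the production and migration of upper-layer neurons. Rorb is a nuclear receptor of the cortical input layer, and Mef2c is a MADS-box factor of neuronal differentiation and synapse development.

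Libraries held 15.9 to 43.9 M reads in genes, with the lowest depth in E14.5, 8 h, replicate C. These are bulk cultures of mixed cells, so more cells of a type and more RNA per cell cannot be told apart. The general neuron genes summed to 2753 to 3291 cpm (read counts that the authors scaled to library size) at E11.5, 5683 to 6480 cpm in E14.5 cells and 8040 to 8357 cpm in E16.5 cells. Radial glia genes went from 9867 to 10388 cpm in E11.5 cells down to 1538 to 1686 cpm in E16.5 cells, with 3778 to 4376 cpm in E14.5 cells. No gene of either list was at 0 in a whole group at 0 h. Interneuron lineage genes summed to 137 to 151 cpm at the first stage and 527 to 559 cpm at the last, and meningeal and mural genes to 465 to 704 cpm and 15.3 to 33.3 cpm. The part of these shifts in the members' results was not tested.

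At the start of the chase, the 7 genes differed in when they rose. Pou3f1, Pou3f2 and Mef2c were higher at each successive stage. Cux2 and Rorb rose past a log2 fold change of 1 only at the later step. Cux1 and Pou3f3, which already had means of 166 and 454 cpm at E11.5, dipped or held at E14.5. From E11.5 to E16.5, 5 of the 7 genes were called higher, where 14.7% of the 18408 genes tested were called higher. The tests ran on counts of covered Ts and the levels printed are cpm, so a fold change can depart from the ratio of the cpm. The call in these stage comparisons needed an adjusted p below 0.05 together with a log2 fold change past 1 (edgeR's quasi-likelihood test with Benjamini-Hochberg adjustment).

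**Figure D1:**
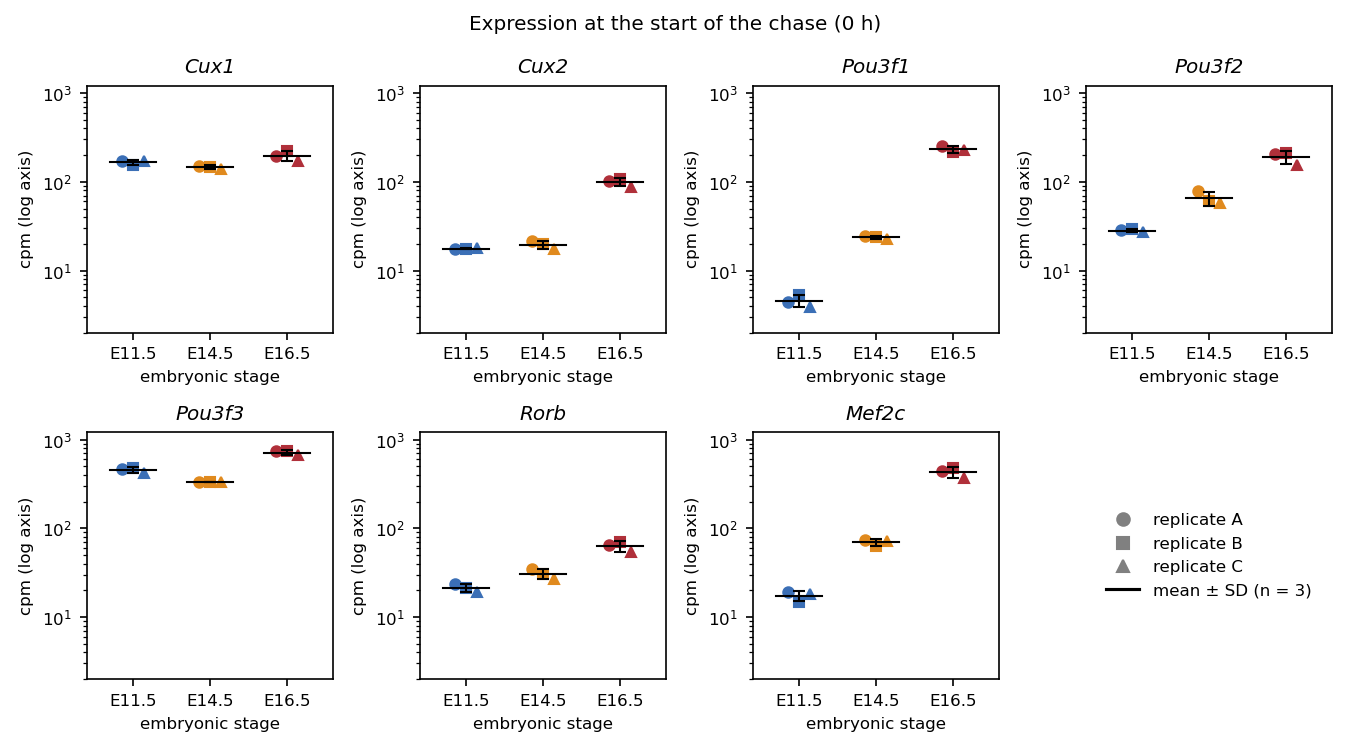
Expression of the 7 genes at 0 h in cpm (y axes, log scale) by embryonic stage (x axes), with 1 symbol for each of the 3 replicates and the mean with its SD in black. Pou3f1 goes from 4.54 to 232 cpm and Mef2c from 17.4 to 431 cpm, whereas Cux1 stays between 138 and 222 cpm.

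Pou3f1 had the largest change of the 7 genes. Its level was 4.42, 5.29 and 3.92 cpm in the E11.5 replicates A, B and C, then 24.6, 23.8 and 22.6 cpm in E14.5 cells and 252, 215 and 228 cpm in E16.5 cells. The groups did not overlap at any step. The mean at E16.5 was 51.0 times that at E11.5 (log2 fold change 5.60 ± 0.14 SE, edgeR adjusted p = 6.94e-12). Both steps passed the test, with 2.44 ± 0.12 (adjusted p = 6.26e-09) for the first and 3.16 ± 0.12 (adjusted p = 8.64e-09) for the second. The E11.5 values rest on 102 to 113 reads a library.

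Mef2c followed the same order. Its level was 19.1, 14.7 and 18.3 cpm in E11.5 cells, 74.4, 62.4 and 71.3 cpm in E14.5 cells and 447, 481 and 364 cpm in E16.5 cells, again with no overlap between stages. The log2 fold change was 2.09 ± 0.12 for the first step (adjusted p = 1.87e-08) and 2.65 ± 0.12 for the second (adjusted p = 1.54e-08), for a total of 4.74 ± 0.13 (adjusted p = 1.61e-11). The mean rose 24.8 times over both steps.

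Among the other POU factors, Pou3f2 rose in 2 steps of similar size. It stood at 28.6, 29.2 and 26.9 cpm in E11.5 cells, at 79.3, 59.99 and 57.4 cpm in E14.5 cells and at 207, 211 and 153 cpm in E16.5 cells. Every replicate of a stage lay above every replicate of the stage before. The log2 fold changes were 1.30 ± 0.13 (adjusted p = 4.15e-06) and 1.52 ± 0.13 (adjusted p = 1.44e-06).

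Pou3f3 was lowest at the middle stage. It ran from 469, 474 and 420 cpm in E11.5 cells down to 332, 330 and 335 cpm in E14.5 cells and up to 737, 737 and 665 cpm in E16.5 cells. All E14.5 replicates lay below all others. The first difference, -0.30 ± 0.06 (adjusted p = 0.00142), did not reach a log2 fold change of 1. The second was 1.00 ± 0.06 (adjusted p = 1.34e-07), right at the threshold, and the call was lost when E11.5 replicate C (0.99), E14.5 replicate B (0.99) or C (1.00) or E16.5 replicate B (0.96) was left out. It was also lost without the filter on low counts (0.98), and in the libraries taken at 12 h of chase, where the difference was 0.72.

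The Cux genes encode related homeodomain proteins. Cux2 had 17.4, 17.7 and 17.7 cpm in E11.5 cells and 21.3, 19.9 and 17.4 cpm in E14.5 cells, groups that overlap, and then 102, 107 and 87.7 cpm in E16.5 cells. Its log2 fold change was 0.26 ± 0.09 (adjusted p = 0.0363) for the first step and 2.33 ± 0.10 (adjusted p = 9.75e-09) for the second. Cux1 had 171, 154 and 172 cpm in E11.5 cells, 153, 146 and 138 cpm in E14.5 cells and 197, 222 and 170 cpm in E16.5 cells. No Cux1 difference was called, with -0.17 ± 0.10 (adjusted p = 0.178) for the first step, 0.41 ± 0.10 (adjusted p = 0.00383) for the second and 0.24 ± 0.10 (adjusted p = 0.0462) over both.

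Rorb, the factor of the input layer, rose least among the 5 genes called from E11.5 to E16.5. It had 23.7, 21.4 and 19.2 cpm in E11.5 cells, 34.8, 30.4 and 26.8 cpm in E14.5 cells and 65.5, 69.5 and 53.4 cpm in E16.5 cells, with no overlap between the stages. The log2 fold change was 0.56 ± 0.12 (adjusted p = 0.00188) for the first step and 1.08 ± 0.12 (adjusted p = 1.14e-05) for the second, where the call was lost without E14.5 replicate C (0.98) or E16.5 replicate B (1.00). Over both steps it was 1.63 ± 0.12 (adjusted p = 9.14e-08).

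By step, 3 of the 7 genes were called higher from E11.5 to E14.5 (Pou3f1, Pou3f2 and Mef2c), where 8.14% of all genes tested were called higher. From E14.5 to E16.5, 6 of 7 were called higher, all but Cux1, beside 7.19% of all genes. The median log2 fold change of the 7 genes was 0.56 for the first step and 1.52 for the second, against -0.01 and -0.00 over all genes tested. In that second step all 7 genes had every E16.5 replicate above every E14.5 replicate, which held for 29.3% of all genes.

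**Figure D2:**
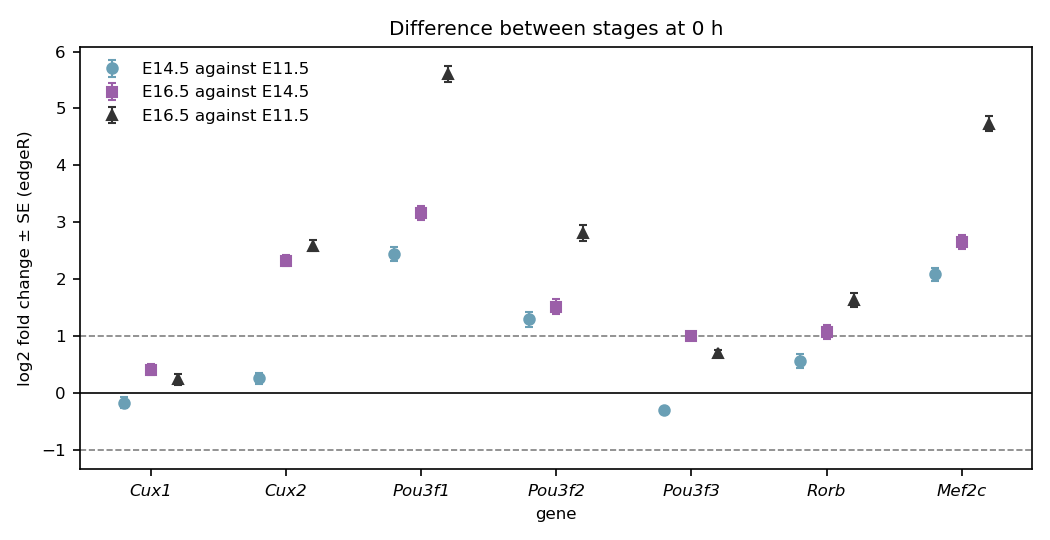
Log2 fold change with its SE from edgeR (y axis) for the 7 genes (x axis) in the 3 comparisons between stages at 0 h, with dashed lines at the threshold of 1 in either direction. Pou3f1 and Mef2c lie highest in each comparison, and Pou3f3 sits on the line from E14.5 to E16.5.

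Levels of different genes were compared as cpm per kilobase of merged exons, since the exons add up to between 3849 nt (Pou3f1) and 20024 nt (Cux1). Pou3f3 was the highest of the 7 on this scale at every stage. The order at E11.5 was Pou3f3 (61.3), Cux1 (8.27), Pou3f2 (5.05), Rorb (1.93), Cux2 (1.75), Pou3f1 (1.18) and Mef2c (1.11), where neither Rorb and Cux2 nor Pou3f1 and Mef2c were separated by their replicates. At E16.5 Pou3f3 (96.2) was followed by Pou3f1 (60.2), Pou3f2 (34.1), Mef2c (27.4), Cux1 (9.81), Cux2 (9.81) and Rorb (5.67). Pou3f2 and Mef2c overlapped there, as did Cux1 and Cux2. On this scale Pou3f1 thus went from the sixth place at E11.5 to the second at E16.5. Merged exons pool all annotated transcripts, 31 for Mef2c and 14 for Cux1 but 1 for each of the POU genes. The order therefore depends on the length used, and in cpm alone Mef2c (mean 431) lay above Pou3f1 (mean 232) at E16.5.

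On the genome (GRCm38, GENCODE mouse release 21), the genes are protein-coding and lie apart from each other. Pou3f1 (chr4:124656807-124660655, plus strand), Pou3f2 (chr4:22482780-22488366, minus) and Pou3f3 (chr1:42695768-42703176, plus) each have 1 exon. Cux1 (chr5:136248135-136567490, minus), Cux2 (chr5:121856366-122050102, minus), Rorb (chr19:18930605-19111196, minus) and Mef2c (chr13:83504034-83667080, plus) have several, and values are summed over them, so isoforms cannot be told apart. Pou3f1 shares 330 nt of exon with the antisense gene Gm2164 and Cux1 394 nt with Gm16599. Gm2164 reached 1.35 cpm and Gm16599 0.248 cpm at most in any library. The strand setting of the counting is not given in the sources used here.

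Genes of the same families were counted beside the members. Of 5 other POU class III, ROR and MEF2 genes tested (Pou3f4, Rora, Mef2a, Mef2b and Mef2d), 1 was called from E11.5 to E16.5. That gene was Mef2b, called lower, at 2.23 ± 1.12 cpm in E11.5 cells and 0.656 ± 0.0917 cpm in E16.5 cells (SD, n = 3; log2 fold change -1.80 ± 0.33, adjusted p = 3.51e-04 by edgeR). Among 12 further genes of upper-layer and callosal neurons, 7 were called higher and 1 lower over the same interval, with a median log2 fold change of 1.79. Among them was Inhba, an activin subunit, which rose from 0.767 ± 0.0892 to 32.1 ± 4.58 cpm (5.32 ± 0.15, adjusted p = 2.01e-11). Of 9 deep-layer genes, 2 were called higher and 1 lower, with a median of 0.77. Of all genes tested, 14.7% were called higher over this interval, and the share called lower is not reported here.

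The genes whose levels ran most like each member's over the 45 libraries were then named, by Pearson's r of log2(cpm + 0.5) among 12201 protein-coding genes. For Pou3f1 these were Far2 and Npas1 (r of 0.99 for both), and for Mef2c Ppp2r2c and Plppr5 (0.99 for both). Slc4a3 and Klhl4 (0.98 for both) ran most like Cux2, Atp2b2 and Mn1 (0.99 for both) most like Pou3f2, and Afap1 and Arhgap33 (0.97 and 0.96) most like Rorb. Lower values stood for Pou3f3, with Lrfn4 and Usp27x (0.95 for both), and for Cux1, with Bcl9 and Rgs12 (0.91 and 0.89). The 45 points share 9 pools and 3 stages, and r here describes these libraries only. Within the list, Pou3f1 and Mef2c had the highest r to each other (0.99), and Cux1 and Pou3f1 the lowest (0.37). Pou3f3 had r of 0.59, 0.56 and 0.58 to Pou3f1, Pou3f2 and Mef2c.

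The second question was how much label the transcripts held after 20 h of 4sU, and how fast it was lost. Label at 0 h rises with the share of a transcript made during labelling, so new synthesis and decay both enter it. The libraries of E16.5 held more label as a whole, 1.80 to 1.91% of covered Ts against 1.01 to 1.44% at E11.5 and 1.03 to 1.18% at E14.5. Members were therefore compared as log2 odds of conversion relative to the median gene of each library, with limma over 12530 genes. Without this centring, the median of all genes was 0.64 (log2) higher at E16.5 than at E11.5 and 0.72 higher than at E14.5. The calls then split into 9792 genes higher and 95 lower for E16.5 against E11.5, and 10304 higher and 92 lower against E14.5, where centred values gave more lower than higher calls in both comparisons.

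Pou3f1 went from poorly to strongly labelled. At E11.5 its rate was 0.535, 0.327 and 0.813% in the 3 replicates, from only 5 to 11 converted Ts each, with exact 95% binomial limits of 0.106 and 0.760% for the lowest value, which cover counting error only. At E14.5 it was 1.02, 0.923 and 0.886%, and at E16.5 1.93, 2.19 and 1.99%, with no overlap between the stages. Relative to the library median it lay at -1.09 ± 0.39 (SD, n = 3) at E11.5, below all but 0.208% of genes, and at 0.15 ± 0.07 at E16.5, above 79.0% of genes. The difference was 1.23 ± 0.17 (SE, adjusted p = 0.00289 by limma).

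Mef2c and Rorb also gained label relative to other genes. Mef2c had a rate of 1.11 ± 0.29% in E11.5 cells, 1.59 ± 0.04% in E14.5 cells and 2.70 ± 0.20% in E16.5 cells (SD, n = 3), and its position moved from above 22.6% of genes to above 98.7%. The relative difference from E11.5 to E16.5 was 0.68 ± 0.09 (adjusted p = 0.00198). Rorb was high throughout, above 88.3% of genes at E11.5 and above 98.5% at E16.5, and gained 0.31 ± 0.07 (adjusted p = 0.0162), a call lost without E16.5 replicate B or C (highest adjusted p = 0.0620).

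Pou3f3 went the other way, by -0.18 ± 0.05 from E11.5 to E16.5 (adjusted p = 0.0321), and was 0.47 higher at E16.5 on the scale without centring (adjusted p = 0.0211). Its call was lost without any replicate of E11.5 or E16.5 or without E14.5 replicate A (highest adjusted p = 0.114). In all, 3 members were called higher (Pou3f1, Mef2c and Rorb) and 1 lower in that comparison, where 6.69% and 10.4% of all genes were. From E14.5 to E16.5, Rorb was called higher (0.28 ± 0.07, adjusted p = 0.0257) beside 5.84% of all genes, and Pou3f2 lower (-0.28 ± 0.07, adjusted p = 0.0237) beside 11.4%. The Rorb call was lost without E14.5 replicate A or C or E16.5 replicate B or C (highest adjusted p = 0.0908). The Pou3f2 call was lost without E14.5 replicate B or C or any E16.5 replicate (highest adjusted p = 0.0841), and without centring Pou3f2 was 0.44 higher (adjusted p = 0.0249). Between E11.5 and E14.5 no member was called by limma, beside 0.168% of all genes in either direction. There 4 members had an unadjusted p under 0.05, and the lowest adjusted p was 0.0551 (Mef2c, 0.62 ± 0.09).

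At E16.5, label left the POU factors and Rorb quickly and the Cux genes slowly. After 2 h of chase at E16.5, 43.0 ± 2.93% of the starting rate remained in Pou3f1, 42.5 ± 1.60% in Pou3f2, 52.2 ± 0.643% in Pou3f3 and 54.9 ± 3.99% in Rorb (SD, n = 3). Mef2c kept 62.5 ± 0.284%, Cux2 87.4 ± 2.14% and Cux1 88.4 ± 9.12%. The median gene of an E16.5 library kept 77.2 to 81.8%. At 12 h the rates of all 7 genes at E16.5 lay between 0.113 and 0.519%, and since no unlabelled library was used here, how much of this is background conversion is not known.

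**Figure D3:**
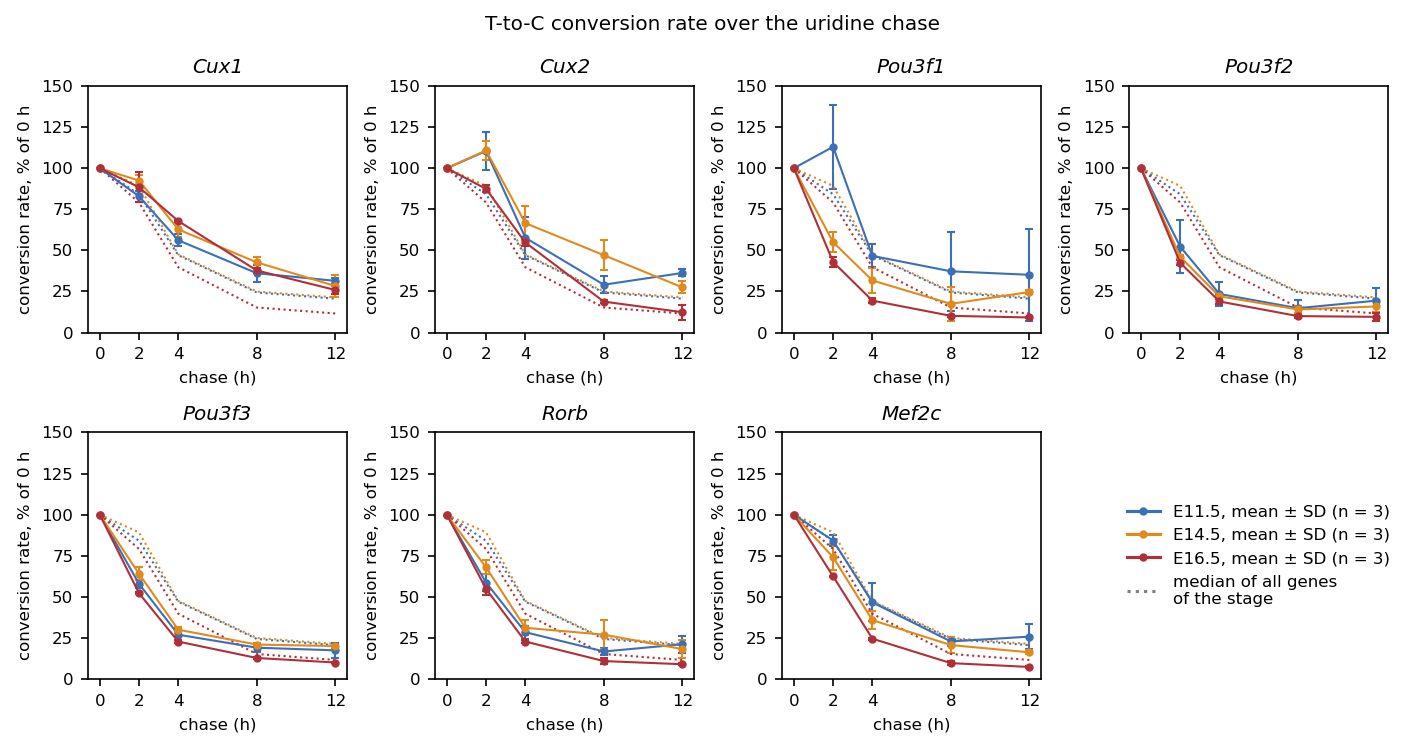
Conversion rate as percent of the rate at 0 h (y axes, mean with SD of 3 replicates) against hours of chase (x axes) for the 7 genes at 3 stages, with dotted lines for the median of all genes of each stage. Pou3f2, Pou3f3 and Rorb fall below the dotted lines within 2 h at all stages, and Cux1 and Cux2 stay on or above them at 4 h.

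Half-lives put numbers on this order. A half-life was obtained from exp(-kx) fitted to the rates of a replicate, and a transcript was kept where its fit passed the filters in all 3 replicates of a stage. All 7 genes were kept at E14.5 and E16.5, and 6 at E11.5, where Pou3f1 failed because R2 was 0.31 in replicate B. The median over all transcripts kept was 4.43 h in E11.5 cells, 4.60 h in E14.5 cells and 3.48 h in E16.5 cells, so hours shift between stages for the median transcript too.

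Pou3f2 had the shortest mean half-life of the list at each stage, with replicates that overlapped those of Pou3f3 and Rorb at E11.5 and of Pou3f1 at E16.5. Its half-life was 1.76, 2.87 and 2.25 h in E11.5 cells, 1.99, 2.00 and 2.00 h in E14.5 cells and 1.75, 1.70 and 1.71 h in E16.5 cells. Only 2.58, 1.04 and 3.66% of the transcripts kept at these stages had a shorter one. Pou3f3 was close behind, with 2.87, 2.85 and 2.33 h, then 2.85, 3.10 and 3.28 h, then 2.14, 2.16 and 2.12 h. Rorb did not separate from Pou3f3 by its replicates at any stage, at 2.74 ± 0.32, 3.41 ± 0.51 and 2.18 ± 0.14 h (SD, n = 3).

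Pou3f1 joined these short-lived transcripts at the later stages. Its half-life was 3.27, 2.59 and 2.67 h in the E14.5 replicates. In those of E16.5 it was 1.74, 1.66 and 1.83 h, and 4.07% of transcripts were shorter. The E11.5 fits gave 5.82, 11.7 and 5.21 h, all above the later values, but rest on 75 to 190 reads a library. Only with E11.5 replicate B left out, the replicate that failed, did Pou3f1 pass the filters. The difference of its z-score from E11.5 was then -1.71 at E16.5 (adjusted p = 0.00889 by limma) and -1.52 at E14.5 (adjusted p = 0.0336). That fit leaves out the longest of its E11.5 half-lives. The E11.5 fits left had R2 of 0.71 and 0.64 and rested on 7 and 11 converted Ts at 0 h.

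Mef2c moved from the middle of all transcripts to the short-lived part. Its half-life was 4.76, 5.36 and 3.78 h in E11.5 cells, 3.03, 4.06 and 3.44 h in E14.5 cells and 2.42, 2.40 and 2.37 h in E16.5 cells, with no overlap between E16.5 and the earlier stages. The share of transcripts with a shorter half-life went from 55.3% (E11.5) to 21.3% (E14.5) and 18.7% (E16.5). Z-scored within each replicate, the difference from E11.5 to E16.5 was -0.72 ± 0.15 (SE, adjusted p = 0.0375 by limma). The call was lost without E11.5 replicate A or B, E14.5 replicate C or any E16.5 replicate (highest adjusted p = 0.123), while the difference stayed negative in each of those fits. Half-lives were fitted to the rate alone, and the level of Mef2c reached 1.43 to 1.76 times its start over the E11.5 chase. The part of that rise in its half-life was not tested.

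The Cux genes had the longest mean half-lives among the members kept at each stage. Cux1 had 5.97, 6.44 and 5.42 h in E11.5 cells, 6.92, 5.85 and 7.70 h in E14.5 cells and 6.26, 6.14 and 6.91 h in E16.5 cells, so that its hours overlapped between all stages. Its rank rose from above 79.7% of transcripts to above 92.4%, and the z-score was 0.97 ± 0.19 higher at E16.5 than at E11.5 (adjusted p = 0.0300). In hours, without z-scores, the same difference was 0.50 h (adjusted p = 0.448), beside a difference of -0.907 h for the median transcript (20 transcripts called longer and 1202 shorter on that scale), and the z-score call was lost without E11.5 replicate A or B or any E16.5 replicate (highest adjusted p = 0.104). Cux2 had 5.77, 7.10 and 7.22 h in E11.5 cells, 7.04, 9.11 and 7.38 h in E14.5 cells and 4.21, 4.46 and 4.43 h in E16.5 cells. All its E16.5 values lay below all others, yet its z-scores had an SD of 0.72 at E11.5 and 0.62 at E14.5, and no difference was called (adjusted p = 0.365 from E11.5 to E16.5). In hours and log2 hours, without z-scores, Cux2 was called shorter in that comparison, by -2.33 h (adjusted p = 0.0429) and -0.61 (adjusted p = 0.0141). R2 of the Cux2 fits was 0.74, 0.86 and 0.70 at E11.5 and 0.87, 0.79 and 0.79 at E14.5.

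Of the 6 genes tested for half-life over 9505 transcripts, 1 was called longer (Cux1) and 1 shorter (Mef2c) from E11.5 to E16.5, beside 2.99% and 1.71% of all transcripts. In the other pairs of stages no member was called by limma, beside 0.2% of all transcripts for E14.5 against E11.5 and 0.884% for E16.5 against E14.5. At an unadjusted p under 0.05 there was 1 in the first pair (Mef2c) and 2 in the second (Cux1 and Cux2). In hours or log2 hours without z-scores, where 3607 and 4862 transcripts were called shorter from E14.5 to E16.5 and 13 and 22 longer, Cux2, Pou3f3 and Rorb were called shorter in that step on both scales.

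**Figure D4:**
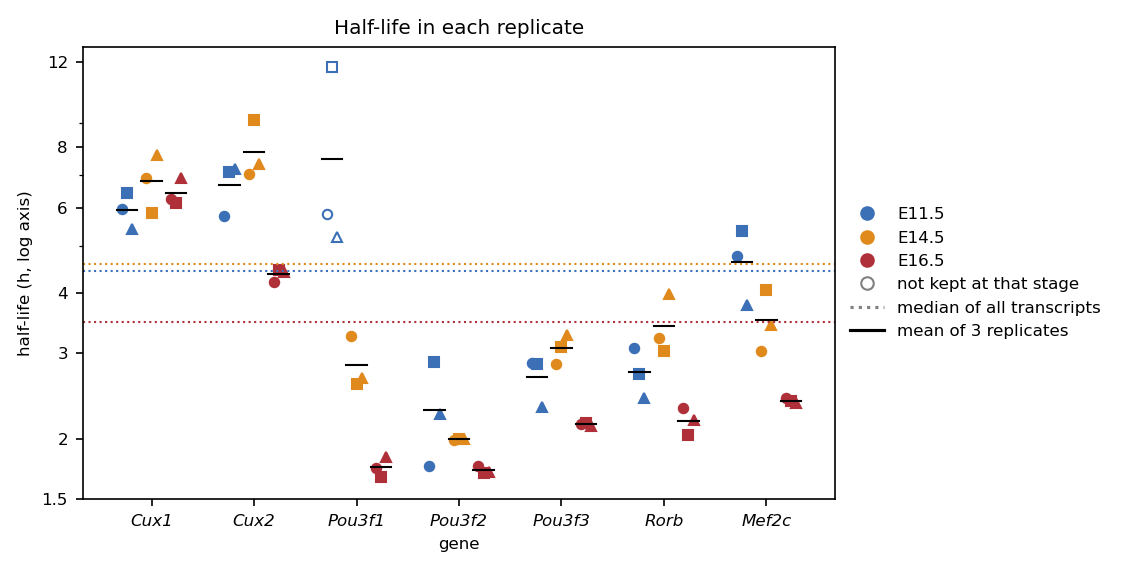
Half-life in hours (y axis, log scale) of the 7 genes (x axis) in each of the 3 replicates of 3 stages, with the mean as a black line, open symbols where a gene was not kept at a stage and dotted lines at the stage medians of 4.43, 4.60 and 3.48 h. Pou3f2, Pou3f3 and Rorb lie below the medians at all stages and Cux1 and Cux2 above them.

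The short-lived POU transcripts were examined for sequence elements of their 3′ untranslated regions (UTRs). AU-rich elements around the letters TATTTAT are known binding sites of factors that promote decay, and the letters were sought on the transcript strand of the isoform with the longest coding sequence. The Pou3f1 3′ UTR (1599 nt) holds 4 matches, as many as 0.891% of 3255 UTRs of like length (within 25%) hold, and 35.0% of those hold at least 1. Pou3f2 (4014 nt) and Pou3f3 (4537 nt) hold 3 each, as many as 12.5% and 14.4% of UTRs of like length. The long-lived Cux2 (4229 nt) holds 2. Rorb (7275 nt), which did not separate from Pou3f3 by half-life, holds 1, and 77.4% of UTRs of like length hold as many. There is no match in Mef2c (4447 nt), where 63.2% of UTRs of like length hold at least 1. None is found in the Cux1 isoform taken (305 nt, where other Cux1 isoforms run to 8376 nt). The 4 Pou3f1 sites are shown with the match in capitals, 5′ to 3′, all on the plus strand of GRCm38, at chr4:124659634-124659663, chr4:124659712-124659741, chr4:124660415-124660444 and chr4:124660594-124660623 in that order.

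Pou3f1 site 1: tttacggttttTATTTATtcgtggagcctc
Pou3f1 site 2: gctgtatgctgTATTTATcggggccccaga
Pou3f1 site 3: tgacccatctcTATTTATtttctggatgtg
Pou3f1 site 4: agttccctttaTATTTATgttatagtaaat

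The sites of the other short-lived POU genes are set beside them, again with the match in capitals. Those of Pou3f2 lie on the minus strand at chr4:22484797-22484826, chr4:22484403-22484432 and chr4:22484226-22484255, and those of Pou3f3 on the plus strand at chr1:42701450-42701479, chr1:42702870-42702899 and chr1:42702904-42702933.

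Pou3f2 site 1: tataatgggcaTATTTATttgcctgtattt
Pou3f2 site 2: gcctcaatgtaTATTTATttctttggagca
Pou3f2 site 3: agatccttataTATTTATgttaaagtaata
Pou3f3 site 1: ggaaaaggccaTATTTATtaaacagaaaga
Pou3f3 site 2: tatttgtaaagTATTTATcctgttggaagc
Pou3f3 site 3: atatattgttgTATTTATtcgtttattttt

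A match describes the letters and is no measured binding site. Every TATTTAT match also contains the pentamer ATTTA, of which Pou3f1 has 6, Pou3f3 and Mef2c 11 each, Rorb 10, Pou3f2 6, Cux2 3 and the Cux1 isoform 0. The 6 pentamers of Pou3f2 lie below the median of 7 in UTRs of like length, of which 60.3% hold as many, and 31.4% hold as many TATTTAT matches as Cux2. The Pumilio element TGTANATA, a site of another decay-promoting factor, had 4 matches in Rorb, 2 each in Pou3f2, Pou3f3 and Mef2c, and 1 each in Pou3f1 and Cux2. In Rorb this was as many as 10.6% of UTRs of like length hold.

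Rates at 2 h above those at 0 h occurred in Cux2 and in Pou3f1. The Cux2 rate at 2 h was above that at 0 h in all 3 replicates of E11.5 (103, 105 and 124% of the rate at 0 h) and of E14.5 (105, 112 and 115%), and below it in all 3 of E16.5 (85.1 to 89.4%). A rate above that at 0 h occurred in 14.8 to 21.6% of genes in the E11.5 replicates, 24.1 to 28.7% at E14.5 and 11.4 to 15.1% at E16.5. The difference in the remaining share at 2 h was -23.0 points for E16.5 against E11.5 and -23.4 points for E16.5 against E14.5 (exact permutation p = 0.1 for each, two-sided, the smallest that 3 against 3 allows, 2 of 42 such comparisons, Benjamini-Hochberg adjusted p = 0.15 for each). Pou3f1 stood at 118, 85.4 and 136% of its rate at 0 h in the E11.5 replicates, with only 5 to 11 converted Ts at 0 h. In every replicate of the later stages it stood at 59.0% or less. At 12 h, 36.3 ± 2.13% of the Cux2 rate remained in E11.5 cells, 27.5 ± 3.55% in E14.5 cells and 12.4 ± 4.65% in those of E16.5.

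The last comparison was of the levels over the chase, against 0 h within a stage, with an adjusted p under 0.05 (edgeR) as the call. At E11.5 Mef2c was called higher at 8 and 12 h. It had 19.1, 14.7 and 18.3 cpm at 0 h, 24.3, 22.4 and 24.6 cpm at 8 h and 27.4, 25.9 and 27.0 cpm at 12 h, with every later value above every value at 0 h. The log2 fold change was 0.46 at 8 h (adjusted p = 0.00372) and 0.85 at 12 h (adjusted p = 1.08e-05). The 8 h call was lost without E11.5 replicate A or B (highest adjusted p = 0.0718).

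Pou3f2 also passed at E11.5 and 12 h, by 0.30 (adjusted p = 0.0129), a call lost without replicate A or B (highest adjusted p = 0.124). Its cpm values, 28.6, 29.2 and 26.9 at 0 h and 32.5, 31.3 and 27.3 at 12 h, overlapped, and the difference in cpm was 0.11 on the log2 scale, while the median gene was at -0.17. This made 2 of 7 called higher at 12 h, beside 13.2% of all genes, and 1 of 7 at 8 h, beside 8.15%. At 2 h and 4 h no member was called by edgeR or by DESeq2, beside 1.33 and 6.24% of all genes in either direction, with 0 and 1 members (Pou3f2) at an unadjusted p under 0.05. With the pool as a block, Pou3f2 was called higher at 4 h, beside 9.84% of all genes.

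**Figure D5:**
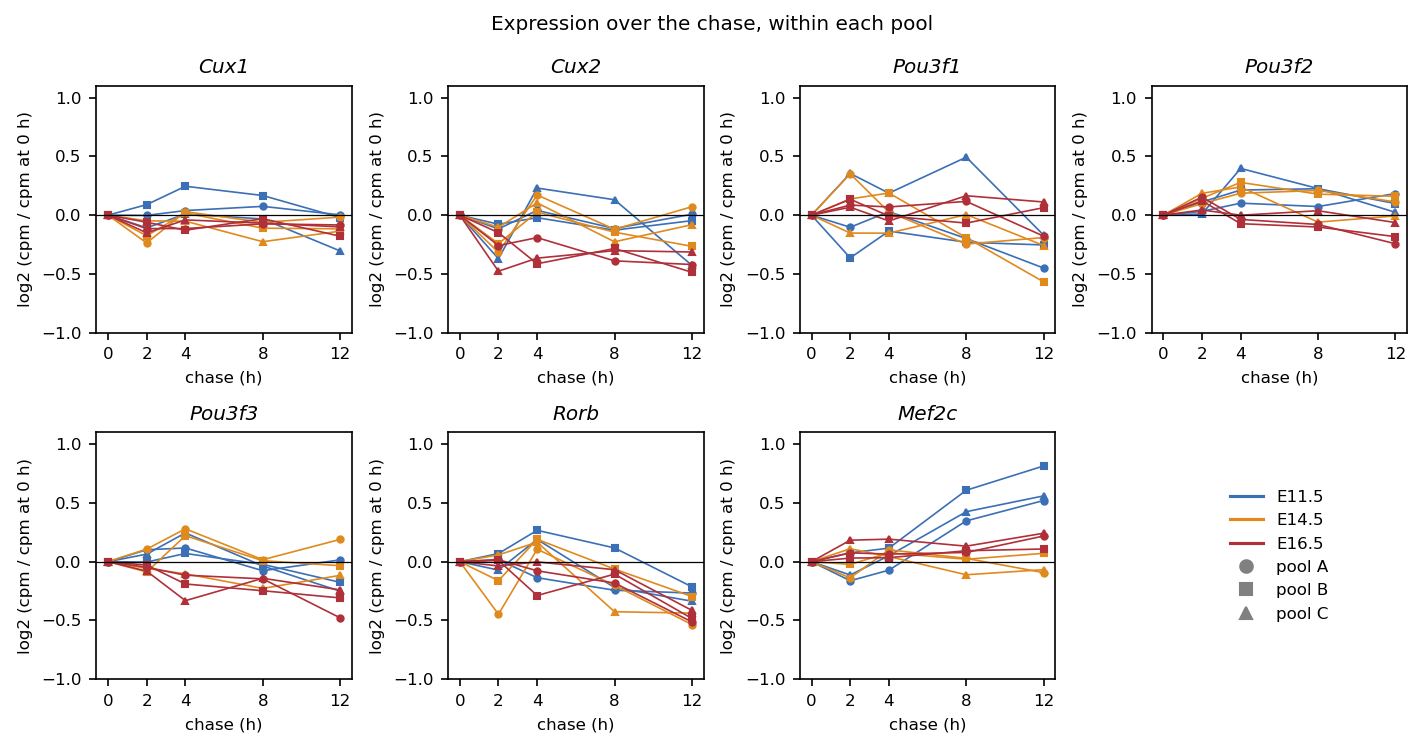
Change in expression over the chase, log2 of cpm over the cpm at 0 h of the same pool (y axes), against hours of chase (x axes), with 1 line for each of 3 pools at each of 3 stages. The 3 E11.5 pools of Mef2c lie at 1.43 to 1.76 times their start at 12 h, and those of Rorb end below it at all stages, at E11.5 beside a median gene at -0.17 (log2) and with no Rorb call there.

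At E14.5 edgeR called no member at 2, 4, 8 or 12 h, beside 1.38, 6.61, 6.19 and 15% of all genes in either direction. At an unadjusted p under 0.05 there was 0 at the first 3 times, when DESeq2 called 0 as well, and 2 at 12 h, Rorb and Pou3f1. With the pool as a block, Pou3f2 was called higher at 4 h, beside 11.4% of all genes, and Rorb (-0.38, adjusted p = 0.00357) and Pou3f1 (-0.39, adjusted p = 0.0213) were called lower at 12 h, beside 13.3% of all genes called lower in that fit. The 12 h calls of both were also made by DESeq2 and without E14.5 replicate C. Rorb at 12 h was 0.690 to 0.814 times its level at 0 h in the 3 pools, and Pou3f1 0.674 to 0.876 times.

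At E16.5 and 12 h, 3 of 7 genes were called lower, beside 12% of all genes. Rorb went from 65.5, 69.5 and 53.4 cpm to 45.9, 49.7 and 40.1 cpm (-0.44, adjusted p = 0.0107), and Pou3f3 from 737, 737 and 665 cpm to 529, 595 and 563 cpm (-0.33, adjusted p = 0.00548). Cux2 went from 102, 107 and 87.7 cpm to 75.9, 76.7 and 70.6 cpm (-0.40, adjusted p = 0.0342). In each of these genes all values at 12 h lay below all values at 0 h. Without replicate A no member was called (adjusted p of 0.0856 for Pou3f3, 0.130 for Rorb and 0.190 for Cux2), and the Cux2 call was also lost without replicate B (0.0905). With the pool as a block 5 of 7 were called, beside 37% of all genes in either direction, namely the 3 genes with lower adjusted p (2.26e-06 for Rorb, 1.03e-05 for Pou3f3 and 1.20e-04 for Cux2), Cux1 lower (-0.12, adjusted p = 0.0261) and Mef2c higher (0.23, adjusted p = 3.55e-05). At 2, 4 and 8 h neither edgeR nor DESeq2 called a member, beside 5.8, 14 and 19.4% of all genes in either direction, and 0, 2 and 1 members had an unadjusted p under 0.05. With the block 3 members were called at each of these times, beside 14.6, 24.1 and 30.4% of all genes.

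The 12 h change of Mef2c itself differed between stages. Against the change at E11.5, that at E14.5 was different by -0.90 ± 0.15 (SE, log2, adjusted p = 8.27e-05 for the interaction in edgeR) and that at E16.5 by -0.63 ± 0.15 (adjusted p = 0.00436), beside 4.7% and 5.43% of all genes called in that direction. At E14.5 Mef2c stood at 74.4, 62.4 and 71.3 cpm at 0 h and 69.8, 65.5 and 68.0 cpm at 12 h, which overlap. No other member was called for a difference in the 12 h change. With the pool as a block, Pou3f2 (-0.41, adjusted p = 7.80e-04), Pou3f3 (-0.33, adjusted p = 0.00138), Rorb (-0.37, adjusted p = 0.0325) and Cux2 (-0.37, adjusted p = 0.0457) were also called between E16.5 and E11.5, beside 11.1% of all genes in that direction.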

How the data were processed

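SLAM-seq was analysed in 45 libraries. The authors aligned reads with SlamDunk 0.4.3 to mm10, with values per gene from the exons in GENCODE mouse release 24. They deposited covered Ts as counts, conversion rates as a fraction, cpm, and a half-life in hours with its R2. Aligner settings, multi-mapping and strand setting are not given in the sources used here. All cpm values were whole multiples of 1 read, to within 0.01 reads, in 100% of cases. Covered-T counts of 1 read are not independent, since a read adds as many as it covers Ts.

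The members and all lists were chosen with earlier results of these data known.

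Expression was tested on the covered-T counts, not on the cpm printed as levels, with edgeR 4.0.16 (quasi-likelihood, TMM, over 10 counts in all libraries of a fit), with Benjamini-Hochberg adjustment over all genes. DESeq2 1.42.0 and recovered reads served as alternatives. Half-lives were refitted and kept at over 500 covered Ts at all times, 0 to 24 h and R2 over 0.6. Z-scores of transcripts kept at all 3 stages and log2 odds of conversion at 0 h (0.5 added) were tested with limma 3.58.1 in R 4.3.3. The regression software of the methods for half-lives was not used here. Scripts were tested on simulated data. Python 3.11.15, with scipy 1.17.1, ran the exact tests. Named besides the members were, from each other list, the 2 genes with the largest change from E11.5 to E16.5 among those called, the 2 genes most like each member, and overlapping genes. Some genes of these lists are not reported here.

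Letters within a stage mark 1 pool, and its libraries deviated together (r of 0.16 to 0.54 between 0 h and 12 h), so the pool served as a block in an alternative. The same letter at another stage is another pool. Between stages, at 0 h and for half-lives, the p-values measure the spread between pools. The main chase fits and the interaction of the 12 h change took the wells of a pool as separate samples. With the pool as a block, the p-values of the chase measure the spread left within pools.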

Additional observations from a re-analysis of the deposited data

Results flagged for a closer look

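The 12 h change of Mef2c in expression over the chase differed between stages, by the interaction test of edgeR. It was -0.90 ± 0.15 (SE, log2, adjusted p = 8.27e-05) for E14.5 against E11.5 and -0.63 ± 0.15 (adjusted p = 0.00436) for E16.5 against E11.5. In the pools, the ratio of cpm at 12 h to 0 h was 1.43, 1.76 and 1.47 at E11.5, 0.937, 1.05 and 0.954 at E14.5 and 1.16, 1.08 and 1.18 at E16.5. Both calls held in each of the 6 fits that left out 1 pool, with adjusted p up to 0.00147 and 0.0311. Groups of 3 replicates are too small for a test of single outlying samples.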

How the results depend on the processing

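For 30 values of called members, the alternatives kept direction and call in 349 cases, lost the call in 52 and reversed it in 2. For 30 values of members not called they kept both in 352, 34 passed the threshold and 6 reversed. The cause was not tested. Leaving out 1 replicate in turn gave 3 members called from E11.5 to E14.5, 4 to 6 from E14.5 to E16.5 and 5 from E11.5 to E16.5. For half-lives it gave 0 to 1 (0 with all replicates) for E14.5 against E11.5 and 0 to 2 (2 with all) for E16.5 against E11.5, and for label 0 to 3 (2 with all) for E16.5 against E14.5 and 2 to 4 (4 with all) for E16.5 against E11.5. Over the chase it gave 0 to 1 at 8 h and 1 to 2 at 12 h for E11.5, 0 to 2 at 12 h for E14.5, and 0 to 1 at 8 h and 0 to 5 at 12 h for E16.5. These counts of members stand without the share of all genes called in the same fits. Without E14.5 replicate A the half-life difference of Mef2c for E16.5 against E14.5 was -0.22, and without replicate B 0.034. The label difference of Cux1 in that pair ran from -0.091 without E14.5 replicate C to 0.0068 without replicate B.

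Half-lives in hours called 3 members and in log2 hours 4 for E16.5 against E14.5, beside 3620 and 4884 of 9505 transcripts. Z-scores called 0 members there, and a log-linear fit with a free start called 1 for E16.5 against E11.5. Label without centring called 7 members in both comparisons with E16.5, where Cux1 stood at 0.66 and 0.49, Pou3f2 at 0.44 and 0.55 and Pou3f3 at 0.65 and 0.47 against E14.5 and E11.5. With over 2000 covered Ts, 1 member was called for label, E14.5 against E11.5, beside 35 of all genes tested in that fit. At E14.5 and 12 h, where edgeR on all libraries called 0 with 2 at an unadjusted p under 0.05, DESeq2 called 2 members, the 6 libraries compared alone 1 and recovered reads 1. At E16.5 and 8 h the 6 libraries alone gave 2, and recovered reads gave 2, against 1 with covered Ts, for the 12 h change of E16.5 against E11.5. For these fits over the chase and the log-linear fit, the count over all genes is not reported here.

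With the replicate block, 1 member was called at 4 h in E11.5 and 1 in E14.5, 2 at 12 h in E14.5, 3 at each of 2, 4 and 8 h and 5 at 12 h in E16.5, and 5 for the 12 h change of E16.5 against E11.5. The same fits called 2951 of 17904 genes at 4 h in E11.5, 3518 and 4966 of 17956 at 4 and 12 h in E14.5, and 2638, 4339, 5469 and 6658 of 18008 at 2, 4, 8 and 12 h in E16.5. Across stages, where samples share only a letter (r of -0.13 to 0.14), the block gave 1 for half-life, E16.5 against E11.5, and 0 for label, E16.5 against E14.5. Over all genes the block moved the count called for the 12 h change from 1005 to 2352 and from 1474 to 3199, and over all transcripts for half-life, E16.5 against E11.5, from 447 to 151. In hours, log2 hours and transcripts kept at the 2 stages compared, that last count was 1222, 3153 and 208. The filter on 2 stages and a centring of log2 hours were chosen after seeing the data. Centring moved the count of all genes called for label from 9887 without it to 2139 with it for E16.5 against E11.5, and from 10396 to 2155 for E16.5 against E14.5, where a quasi-binomial model gave 3697. At E11.5 the label of Pou3f1 rests on 102 to 113 reads a library and its half-life on 75 to 190.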

Other observations

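Other cell types also differed between stages at 0 h. Of 9 interneuron lineage genes, 7 were tested and 5 were called higher from E11.5 to E16.5 by edgeR, led by the GABA-synthesis genes Gad1 (from 0.477 to 45.6 cpm, log2 fold change 6.76, adjusted p = 9.73e-13) and Gad2 (from 1.20 to 39.1 cpm, 4.99, adjusted p = 2.03e-10). Their summed level was 137 to 151 cpm at E11.5 and 527 to 559 cpm at E16.5. Meningeal and mural genes went from 465 to 704 cpm summed at E11.5 to 15.3 to 33.3 cpm at E16.5, with 6 of 7 called lower, among them the collagens Col3a1 (-6.03, adjusted p = 2.49e-08) and Col1a1 (-5.23, adjusted p = 5.96e-07). Microglia genes stayed between 8.10 and 17.4 cpm summed, with Aif1 (1.76) and Tyrobp (1.23) called higher and P2ry12 lower (-1.43), and endothelial genes between 1.04 and 6.18 cpm.

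Within the neural lineage, 8 of 9 radial glia genes were called lower over that interval and 1, Slc1a3, higher (1.01), with the largest falls in the filament gene Vim (-3.23) and the Notch target Hes5 (-2.88). All but 1 of the 8 general neuron genes were called higher, led by Neurod6 (2.96) and the synaptic gene Snap25 (2.83). Among 5 intermediate progenitor genes, 2 were called lower, Neurog1 (-4.10) and Btg2 (-1.46). The deep-layer genes with the largest changes were Ldb2, called higher (4.67), and Tle4, called lower (-1.24). In the glial lists, 4 of 5 oligodendrocyte lineage genes were called higher, with Sox10 (3.39) and Olig2 (1.89) the most, as were 3 of 5 astrocyte genes, with Gfap (3.01) and Aldh1l1 (2.11) the most. Levels were low for Sox10 (from 0.270 to 2.68 cpm) and Gfap (from 0.196 to 1.49 ± 1.16 cpm, SD). Olig2 stood at 34.3, 139 and 121 cpm in E11.5, E14.5 and E16.5 cells. Aqp4 and Slc1a2 of the astrocyte list were not called. The part of all these lists in the members' results was not tested. From E11.5 to E16.5, 14.7% of all genes tested were called higher, and the share called lower is not reported here.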
